A study of Saccharomyces cerevisiae with 116 samples.

Results

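The response to heat shock of budding yeast held in G1 was read from 5 RNA libraries, chosen by their labels alone: 2 taken before heat (T0, replicates 1 and 2) and 3 labelled T10. Of the T10 libraries, that of replicate 1 carried no temperature label, and both others, of replicate 2, were labelled 33c and 37c. They are 5 of the 116 libraries of the series and of its 50 RNA libraries without added fission yeast cells. All cells were BY4741, a laboratory strain of mating type a that lacks LEU2, MET17, URA3 and part of HIS3, and had been kept in rich medium (YPD) over 7 to 10 generations. Before heat they were treated for 2 h with 25 uM alpha factor, the mating pheromone that stops a cells in G1. The sources used here give neither the growth temperature nor whether the pheromone stayed in the medium during heat, and T10 was read as minutes. Other libraries served for contrast. Cells held in mitosis by nocodazole (10 ug/ml, 2 h), a drug that takes the spindle apart, gave 2 libraries at T0 and 3 at T10 of heat with the same temperature labels, and asynchronous cells gave 1 and 1. Alpha-factor-arrested cells exposed to NaCl gave 2 libraries at T0 and 3 at T30, labelled with no dose, 0.5N and 0.7N. The series states that biological replicates were made, but the labels do not say which libraries came from separate cultures, so the p-values rest on the spread between libraries, which may be technical, and at T10 that spread also holds the temperature labels.

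Heat unfolds proteins, and yeast answers within minutes. The heat shock factor Hsf1 raises genes for chaperones, which hold, refold or disaggregate damaged proteins, while the paired regulators Msn2 and Msn4 raise a wider set of stress genes, among them enzymes that make the protective sugar trehalose. At the same time genes for ribosomes and for their assembly, which growing cells transcribe heavily, are turned down. Cells in alpha-factor arrest no longer divide but keep growing in mass. Whether the arrest held through the heat series was not tested.

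Totals ran from 3764593 to 4457208 counts per library. The labels were checked against marker genes. The 8 pheromone response markers summed to 7777 to 13076 CPM (counts scaled to the library's total) in the 5 libraries, against 95.9 CPM in asynchronous and 107 to 153 CPM in nocodazole cells at T0. The 4 mitotic markers summed to 94.0 to 129 CPM against 495 to 825 CPM there. LEU2, MET17 and URA3 had no count in any of the 5 libraries, which allows at most 0.673 to 0.797 CPM (3 counts of a library's total), and HIS3 was read at 14.4 to 33.1 CPM. Of the alpha-cell markers, MF(ALPHA)1, MF(ALPHA)2 and STE3 stayed at or below 5.05 CPM and SAG1 lay at 28.4 to 43.7 CPM. The T0 libraries were less alike than the T10 libraries: across 5689 genes, which are not independent replicates, log2 CPM correlated at 0.948 between both T0 libraries and at 0.977 to 0.984 among the T10 libraries. T0 replicate 2 correlated with the 33c library at 0.950. Ribosome biogenesis genes were lower in T0 replicate 2 than in replicate 1 by a median of 0.67 on the log2 scale, and ribosomal protein genes were higher (replicate 1 minus replicate 2, median -0.62).

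With heat, 401 of 5689 tested genes rose (7.05%) and 469 fell (8.24%) in alpha-factor-arrested cells (edgeR, adjusted p under 0.05). Values are relative to all yeast counts of a library, so a change in total RNA per cell cannot be seen. A fall or rise may thus be relative only. Lists of genes were written from general knowledge, but with earlier results of these data known. Ribosomal protein genes were taken by symbol, and the induced stress cluster from the deposited annotation. The lists are described below by their counts of rises and falls, to be read against the 7.05% and 8.24% of all genes, and by the median log2 change of their tested members. That median was -0.01 over all genes tested. Leaving out genes that averaged under 10 CPM, the 10 largest rises were those of SSA4, HSP26, DDR2, YGP1, SPI1, SOL4, HSP30, YRO2, HSP12 and HXT7, which mixed chaperones with general stress genes and a glucose transporter. The 10 largest falls were RPF1, DHR2, NOP14, YBL028C, NOP13, DBP3, NOP4, SSF1, DRS1 and RRP12. All of them but YBL028C, a gene with a systematic name only, are known for making ribosomes. Of the rises 173 and of the falls 222 belonged to a list. The count of calls was 265 in place of 870 without T0 replicate 1, 402 without the T10 library of replicate 1 and 387 without the 37c library.

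Small heat shock proteins and disaggregases, which keep unfolded proteins soluble or pull aggregates apart, had the largest median change of the 40 lists. Of this list 6 of 6 tested members passed, all higher, with a median log2 change of 4.21, and each T10 library lay above both T0 libraries for all 6. In all, the T10 libraries lay above both T0 libraries for 22.9% of tested genes and below both for 25.1%. HSP26, a small heat shock protein, stood at 11.2 and 9.65 CPM at T0 and 2166, 522 and 3013 CPM at T10, given here and below in the order no temperature label, 33c and 37c. Its log2 change was 7.57 ± 0.97, adjusted p = 0.00125. Here and for all changes below, ± gives an SE worked back from the test. It is the size of the change divided by the square root of the test's F value. HSP104, the disaggregase that threads proteins out of aggregates, went from 1984 and 1334 CPM at T0 to 20632, 8554 and 21691 CPM at T10 (3.43 ± 0.62, adjusted p = 0.00551). HSP42, the other main small heat shock protein, went from 216 and 127 CPM at T0 to 3473, 1530 and 4860 CPM at T10 (4.33 ± 0.69, adjusted p = 0.00297). In these genes the 33c library was the lowest at T10, and the library without a temperature label lay close to the 37c library. BTN2, a sorting factor for misfolded proteins, rose by 4.49 ± 1.07, its relative CUR1 by 1.94 ± 0.50 and the mitochondrial disaggregase HSP78 by 4.09 ± 0.74.

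**Figure D1:**
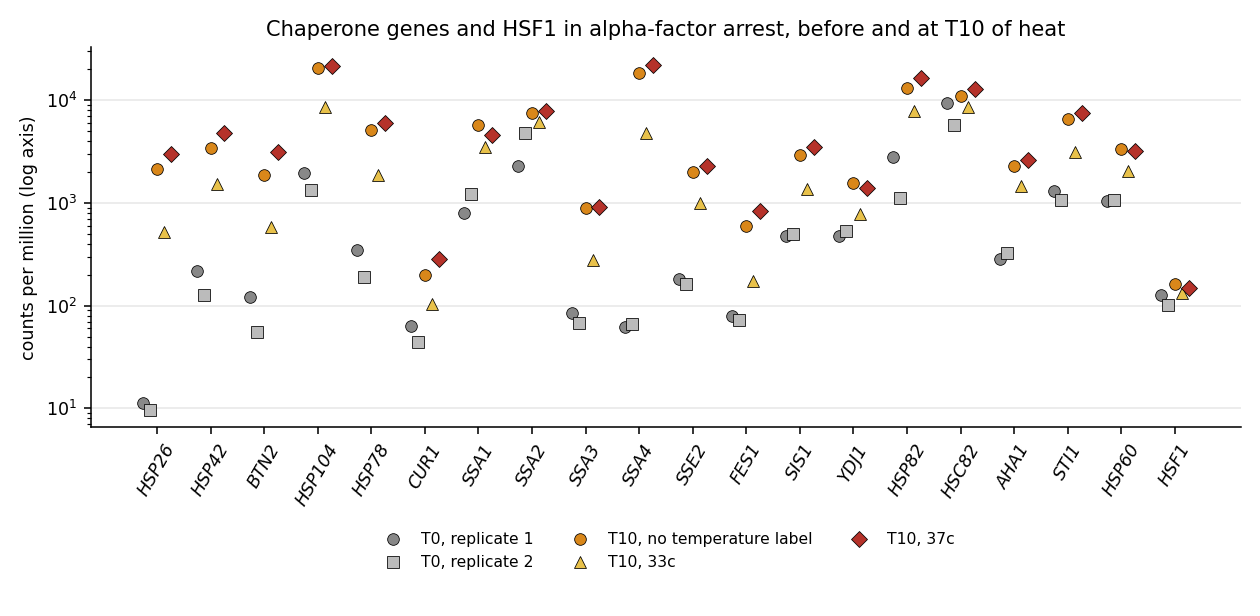
CPM (log axis) of 19 chaperone genes and HSF1 in each of the 5 libraries: grey, before heat; coloured, T10. For HSP26 the T10 libraries sit at 522 to 3013 CPM and the T0 libraries at 9.65 and 11.2 CPM, while HSC82 and HSF1 shift little.

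Hsp70 chaperones bind exposed stretches of unfolded proteins, and exchange factors reset them. Of 18 tested members of this list 6 rose and 1 fell, with a median of 0.68, and 8 of the 18 are also on the list of heat shock factor targets. SSA4, the strictly stress-induced cytosolic Hsp70, had the largest change of all genes tested. It stood at 61.5 and 67.1 CPM at T0 and 18293, 4830 and 22291 CPM at T10, so that even the 33c library lay far above both T0 libraries (7.94 ± 1.04, adjusted p = 0.00135). Its relative SSA3 went from 85.3 and 68.2 CPM at T0 to 902, 276 and 924 CPM at T10 (3.26 ± 0.75, adjusted p = 0.0171). SSA1, which is also made without stress, went from 805 and 1222 CPM at T0 to 5765, 3486 and 4608 CPM at T10 (2.23 ± 0.38, adjusted p = 0.00439). SSA2, the constitutive form, had 2297 and 4823 CPM at T0 and 7468, 6144 and 7893 CPM at T10 and did not pass (1.04 ± 0.47, adjusted p = 0.173), and since SSA1 and SSA2 are near-identical copies, how reads were split between them is uncertain. The exchange factors SSE2 (3.42 ± 0.48) and FES1 (2.88 ± 0.80) rose, as did KAR2, the Hsp70 of the endoplasmic reticulum (1.66 ± 0.43). SSE1, the more abundant relative of SSE2 in unstressed cells, gave 0.85 ± 0.53 (adjusted p = 0.323) with overlapping groups. The ribosome-bound SSB1 (-1.23 ± 0.46, adjusted p = 0.101) and SSB2 (-1.37 ± 0.48, adjusted p = 0.0845), another pair of near-identical copies, lay lower in all T10 libraries without passing. The member that fell was MGE1, the exchange factor of mitochondrial Hsp70, at 342 and 227 CPM at T0 and 104, 114 and 113 CPM at T10 (-1.31 ± 0.22, adjusted p = 0.00411).

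Hsp90 and its cochaperones, which finish the folding of kinases and receptors, divided. Of 14 tested members 5 rose and 2 fell, with a median of 0.18. HSP82, the stress-inducible Hsp90, went from 2839 and 1123 CPM at T0 to 13308, 7940 and 16404 CPM at T10 (2.75 ± 0.69, adjusted p = 0.0249), and its T0 libraries differed by more than 2-fold. HSC82, the constitutive and near-identical copy, had 9527 and 5766 CPM at T0 and 11037, 8621 and 13003 CPM at T10 and did not pass (0.58 ± 0.46, adjusted p = 0.444). AHA1, the activator of the Hsp90 ATPase, went from 287 and 328 CPM at T0 to 2295, 1473 and 2637 CPM at T10 (2.85 ± 0.37, adjusted p = 0.00128). STI1, which passes clients from Hsp70 to Hsp90, rose by 2.34 ± 0.48, the prolyl isomerase CPR6 by 2.24 ± 0.45 and the AHA1 relative HCH1 by 2.15 ± 0.42. PPT1, the phosphatase that acts on Hsp90, fell from 108 and 73.4 CPM at T0 to 24.0, 31.3 and 20.5 CPM at T10 (-1.79 ± 0.27, adjusted p = 0.00248), and the cochaperone CNS1 fell too (-1.22 ± 0.34, adjusted p = 0.0369).

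J proteins, which bring clients to Hsp70, gave 4 rises and 3 falls among 22 tested, with a median of -0.09. Over all genes, 7.05% rose and 8.24% fell. SIS1, the J protein that also holds Hsf1 activity in check, went from 472 and 498 CPM at T0 to 2947, 1385 and 3493 CPM at T10 (2.48 ± 0.58, adjusted p = 0.0182). YDJ1, the main cytosolic J protein, had a smaller rise (1.37 ± 0.33, adjusted p = 0.0212), while APJ1 (3.69 ± 1.07, adjusted p = 0.0447) and the mitochondrial MDJ1 (2.31 ± 0.48, adjusted p = 0.0110) rose more. The falls were those of JJJ2 (-1.42 ± 0.39), the ribosome-bound ZUO1 (-0.92 ± 0.26) and SEC63 (-0.69 ± 0.20), which serves import into the endoplasmic reticulum. Among 9 tested mitochondrial chaperones 3 rose, namely HSP78, MDJ1 and the cochaperonin HSP10 (1.36 ± 0.29), and MGE1 fell. HSP60, the chaperonin that works with HSP10, stood at 1036 and 1066 CPM at T0 and 3343, 2040 and 3188 CPM at T10, above T0 in every T10 library, but did not pass (1.50 ± 0.66, adjusted p = 0.156). The chaperonin TRiC and its partner prefoldin, which fold actin and tubulin, moved the other way. Of 14 tested members 4 passed, all lower, with a median of -0.85, led by CCT5 at 412 and 311 CPM at T0 and 202, 192 and 139 CPM at T10 (-0.97 ± 0.24, adjusted p = 0.0230).

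Across the list of heat shock factor targets as a whole, 22 of 32 tested members passed, all higher, with a median of 2.27, and CUP1-1 did not pass the filter on low counts. This list overlaps those above, so it is not a separate result. It shares 6 members with small heat shock proteins and disaggregases, 8 with Hsp70, 7 with Hsp90, 5 with mitochondrial chaperones and 4 with J proteins. The share of a library's counts that the list's 33 genes took was 3.74% (Wilson 95% interval 3.72 to 3.76) and 3.08% (3.06 to 3.10) at T0. At T10 it was 13.99% (13.96 to 14.03) without a temperature label, 7.56% (7.53 to 7.59) at 33c and 16.2% (16.1 to 16.2) at 37c, intervals that cover counting error only. Every T10 library exceeded both T0 libraries in this share. Without T0 replicate 1 the number of members past the test was 6, and without T0 replicate 2, the T10 library of replicate 1 or the 37c library it was 12 each time.

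General stress genes, the set driven mainly by Msn2 and Msn4, also rose: 52 of 64 tested members passed, all higher, with a median of 1.90. HSP12, a small membrane-associated stress protein, went from 58.2 and 37.9 CPM at T0 to 1504, 613 and 2056 CPM at T10 (4.93 ± 0.71, adjusted p = 0.00196). YGP1, a secreted glycoprotein, went from 5.47 and 11.0 CPM at T0 to 414, 180.4 and 428 CPM at T10 (5.40 ± 0.56, adjusted p = 0.000713), and the cell wall protein gene SPI1 rose by 5.25 ± 0.78. DDR2 had 2 counts in each T0 library and 168, 115 and 276 at T10, a ratio of 101 (39.4 to 373, exact binomial 95% interval, counting error only). CTT1, the cytosolic catalase, went from 9.70 and 25.1 CPM at T0 to 90.8, 62.9 and 102 CPM at T10 (2.31 ± 0.60, adjusted p = 0.0293). Of the 277 genes that the deposited annotation names an induced stress cluster, 272 were tested, and 120 rose and 1 fell with a median of 0.84; 52 of the 64 general stress genes are among them. Without T0 replicate 1 the number of general stress genes past the test was 26, and without the 37c library 33.

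Enzymes of storage sugars rose together with this set, and part of them belongs to it. All 7 tested trehalose enzymes passed, higher, with a median of 1.31. TSL1, a regulatory subunit of the trehalose synthase, went from 187 and 291 CPM at T0 to 5149, 3051 and 5358 CPM at T10 (4.28 ± 0.43, adjusted p = 0.000713), and TPS1, the catalytic subunit, from 662 and 616 CPM at T0 to 1827, 1344 and 1852 CPM at T10 (1.44 ± 0.24, adjusted p = 0.00391). The trehalases NTH1 (1.15 ± 0.23), NTH2 (1.31 ± 0.17) and ATH1 (1.53 ± 0.28), which break trehalose down, rose as well. Of 13 tested glycogen enzymes 11 passed, all higher, with a median of 2.27. The glycogen phosphorylase GPH1 (4.09 ± 0.42), the phosphoglucomutase PGM2 (3.16 ± 0.31) and the glycogen synthase GSY2 (2.87 ± 0.26) were among the largest rises, with GAC1 (3.97 ± 0.62) and UGP1 (2.94 ± 0.54). UGP1, which makes the UDP-glucose that both sugars are built from, had 369 and 787 CPM at T0 and 4305, 4401 and 4357 CPM at T10, so its 33c library was not below the others.

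Among genes of sugar uptake and phosphorylation a smaller part rose, against 7.05% of all genes tested. HXK1, the hexokinase used away from high glucose, went from 476 and 451 CPM at T0 to 3287, 3699 and 4012 CPM at T10 (3.03 ± 0.30, adjusted p = 0.000713), and GLK1 (1.92 ± 0.45) and TDH1 (2.12 ± 0.45) rose too, while the other 18 of 21 glycolysis genes did not pass. TDH3, the main glyceraldehyde-phosphate dehydrogenase gene, gave 0.27 ± 0.43, adjusted p = 0.736 with overlapping groups. Of 18 tested hexose transporter and glucose sensing genes 4 rose. Every T10 library lay above both T0 libraries for 11 of them (22.9% of all genes) and below both for 5 (25.1%). HXT7 had 3 and 9 counts at T0 and 156, 149 and 175 at T10, a ratio of 29.0 (16.5 to 56.6), and the near-identical HXT6 had 0 and 2 counts against 26, 8 and 38, a ratio of 26.1 (6.97 to 220), so the assignment of reads between them is uncertain. GPD1, the glycerol enzyme of the osmotic response, did not pass (0.35 ± 0.29, adjusted p = 0.460), while 8 of 23 osmotic response genes rose, with a median of 0.50.

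Some regulators of these genes rose as well. HSF1 stood at 128 and 103 CPM at T0 and 164, 133 and 148 CPM at T10, just above T0 in every T10 library, without passing (0.42 ± 0.22, adjusted p = 0.241). MSN2 rose from 39.1 and 57.9 CPM at T0 to 111, 95.5 and 105 CPM at T10 (1.14 ± 0.23, adjusted p = 0.0109), and MSN4 gave 1.35 ± 0.44, adjusted p = 0.0689. Of 26 tested stress regulators 7 passed, all higher (7.05% of all genes did), with a median of 0.58. Every T10 library lay above both T0 libraries for 13 (22.9% of all genes) and below both for 4 (25.1%). Those that passed were USV1 and GIS1 (transcription factors), IRA2 (RAS inhibitor), XBP1 (repressor), YAK1 (kinase), MSN2 and TPK2 (protein kinase A subunit). Their changes ran from 0.93 to 2.99. IRA2 went from 433 and 589 CPM at T0 to 2795, 1073 and 3092 CPM at T10 (2.23 ± 0.59, adjusted p = 0.0304), and its 33c value was nearer to T0 than to the other T10 values.

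Protein degradation genes had 1 call. UBI4, the polyubiquitin gene that replenishes ubiquitin under stress, rose from 287 and 435 CPM at T0 to 2344, 1253 and 2844 CPM at T10 (2.62 ± 0.52, adjusted p = 0.00941). It was the 1 call among 23 ubiquitin and quality control genes, whose median was -0.04, against 7.05% of all genes higher and 8.24% lower. Of 35 proteasome genes 0 passed in edgeR, with a median of -0.17. At an unadjusted p under 0.05, 2 lay lower, against 920 of all 5689 genes. DESeq2 called 1 lower, against 616 of all genes. RPN4, the transcription factor of proteasome genes, had 309 and 186 CPM at T0 and 429.7, 253 and 498 CPM at T10 and overlapping groups (0.74 ± 0.43, adjusted p = 0.288). HSP30, a plasma membrane protein that restrains the proton pump, rose from 1.24 and 1.79 CPM at T0 to 61.6, 7.58 and 70.4 CPM at T10 (4.96 ± 1.18, adjusted p = 0.0196), and its 33c library lay far below both others. NCE102, a plasma membrane protein on the list of G2/M genes, rose from 20.2 and 33.0 CPM at T0 to 755, 543 and 877 CPM at T10 (4.81 ± 0.44, adjusted p = 0.000713).

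Genes for making ribosomes formed the main block of falls. Of 139 tested ribosome biogenesis genes 119 passed, all lower, with a median of -1.94. NOP14, a factor of the small subunit precursor, went from 606 and 181 CPM at T0 to 38.9, 67.7 and 37.5 CPM at T10 (-2.96 ± 0.51, adjusted p = 0.00447). RRP12, an export factor of both subunits, went from 565 and 342 CPM at T0 to 71.9, 80.1 and 64.5 CPM at T10 (-2.59 ± 0.27, adjusted p = 0.000713). The helicase DHR2 went from 27.4 and 26.0 CPM at T0 to 2.78, 4.55 and 2.39 CPM at T10 (-2.98 ± 0.32, adjusted p = 0.000713) and the nucleolar protein NSR1 from 250.3 and 259.6 CPM at T0 to 59.0, 89.0 and 52.3 CPM at T10 (-1.89 ± 0.31, adjusted p = 0.00363). The T10 libraries lay below both T0 libraries for 132 of the 139 genes (25.1% of all genes). T0 replicate 2 lay between T0 replicate 1 and the T10 libraries for NOP14 and RRP12. Set against the T0 library of the same replicate number, the T10 library of replicate 1 had a list median of -2.39. The 33c library had -1.26 and the 37c library -1.75. The list took 3.21% and 1.96% of counts at T0 and 0.631%, 0.855% and 0.633% at T10. Without T0 replicate 1 the number of falls past the test was 68. Of 21 genes of RNA polymerases I and III, which make ribosomal and transfer RNA, 18 passed, all lower, with a median of -1.53, led by RPA43 at 119 and 75.4 CPM at T0 and 19.2, 21.7 and 17.5 CPM at T10 (-2.26 ± 0.32, adjusted p = 0.00180). Without T0 replicate 1, the T10 library of replicate 1 or the 37c library the count was 7, 10 and 9.

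Ribosomal protein genes lay lower by less. Of 137 tested 28 passed, all lower, with a median of -0.94. All T10 libraries lay below both T0 libraries for 84 of them (25.1% of all genes). RPL3, a large subunit protein, went from 3359 and 2951 CPM at T0 to 1468, 1652 and 1344 CPM at T10 (-1.03 ± 0.25, adjusted p = 0.0234). RPS2, of the small subunit, went from 1250 and 1225 CPM at T0 to 291, 585 and 316 CPM at T10 (-1.60 ± 0.43, adjusted p = 0.0313), with the 33c library between T0 and the others. The list's share of counts was 7.71% and 9.10% at T0 and 3.32%, 5.55% and 3.98% at T10. Many of these genes are present as near-identical pairs, such as RPL31B (-1.92 ± 0.35) and RPS26B (-1.72 ± 0.36), so single members are uncertain. The number of falls past the test depended on libraries and settings. It was 45 in DESeq2, 49 in the 5 libraries alone, 70 with the T0 libraries of the salt series added and 81 in the fit of 10 alpha libraries. It was 1 without T0 replicate 1, 14 without T0 replicate 2, 3 without the T10 library of replicate 1 and 4 without the 37c library. Of 38 translation factors 19 passed, all lower, with a median of -1.03, led by the scaffold TIF4631 at 1447 and 1207 CPM at T0 and 379, 494 and 351 CPM at T10 (-1.65 ± 0.25, adjusted p = 0.00248), and 5, 10 and 9 passed without T0 replicate 1, the T10 library of replicate 1 or the 37c library.

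Genes of the arrest itself were read next. Of 34 pheromone response genes 4 fell, against 8.24% of all genes, with a median of -0.27. In every T10 library 12 lay below both T0 libraries (25.1% of all genes did) and 4 lay above both (22.9%). The 8 summed pheromone markers had 13076 and 11964 CPM at T0 and 9289, 10937 and 7777 CPM at T10, lower in each T10 library. Among the falls were ASG7, a regulator of pheromone signalling, at 1681 and 1447 CPM at T0 and 539, 887 and 515 CPM at T10 (-1.23 ± 0.27, adjusted p = 0.0149) and the motor protein KAR3 (-1.45 ± 0.42, adjusted p = 0.0429). FUS1, a cell fusion gene widely used as a pheromone reporter, stood at 868 and 597 CPM at T0 and 592, 579 and 554 CPM at T10. It lay just below both T0 libraries each time, a small margin that depends on scaling to the library's total. FUS1 did not pass (-0.29 ± 0.27, adjusted p = 0.522). CLB2, the mitotic cyclin gene, gave 0.33 ± 0.22, adjusted p = 0.346 with overlapping groups, and the G1 cyclin gene CLN2 gave -0.47 ± 0.22, adjusted p = 0.193. Of 40 G1/S genes 1 rose and 2 fell, and of 28 G2/M genes 5 rose, NCE102 included, against 7.05% of all genes. Falls numbered 4 of 20 purine synthesis, 4 of 23 phosphate and 3 of 48 amino acid synthesis genes, the last near the 8.24% of all genes. Examples are AAH1 (-1.94 ± 0.24), PHO81 (-1.43 ± 0.20) and ILV5 (-1.45 ± 0.41).

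Most genes that changed did so by less in the 33c than in the 37c library, which is a description, since these libraries also chose the genes and each label rests on 1 library. Of the 401 genes that rose, 334 were lower in the 33c than in the 37c library, against 2762 of all 5689 genes tested, and of the 469 that fell 409 were higher at 33c. Against the mean of both T0 libraries, heat shock factor targets had a median of 1.43 at 33c, 2.65 at 37c and 2.51 without a label. General stress genes had medians of 1.66, 2.00 and 1.98, and ribosome biogenesis genes -1.58, -2.06 and -1.99. The fitted difference, 37c minus 33c, had a median of 1.10 on the log2 scale for heat shock factor targets and 0.58 for general stress genes. HXK1, with 3699 CPM at 33c and 4012 CPM at 37c, was at nearly the same level in both, whereas HSP30 had 7.58 and 70.4 CPM. In a fit with each T10 library as its own group, 26 genes rose at 33c (0.457%) and none fell, 126 rose (2.21%) and 71 fell (1.25%) at 37c, and 109 rose (1.92%) and 50 fell (0.879%) without a label. Between 37c and 33c 0 genes passed (0% of 5689, edgeR; 53 at an unadjusted p under 0.05), SSA4 with a difference of 2.27 ± 1.01 and HSP26 with 2.60 ± 0.81 included. As each arm is 1 library, the spread in these fits comes from the other groups, and the single libraries are assumed to vary like them. In nocodazole arrest the medians of heat shock factor targets were 1.43 at 33c and 3.18 at 37c.

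**Figure D2:**
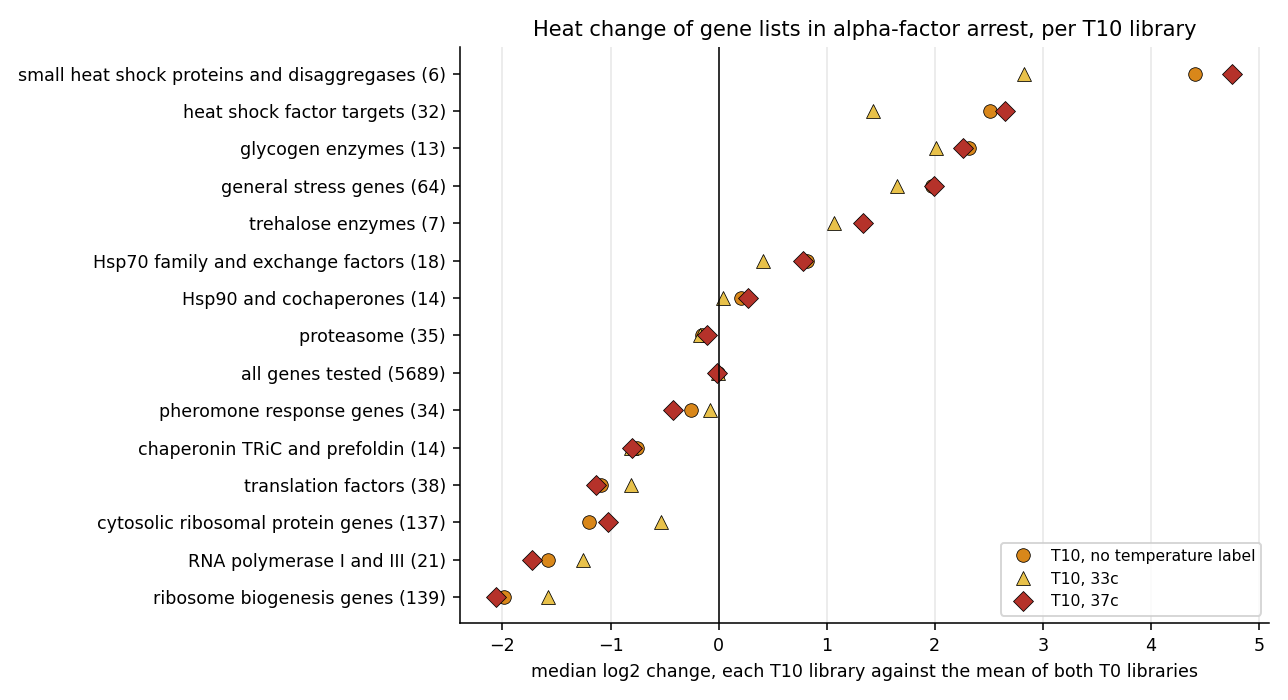
Median log2 change over the genes of 14 lists and of all genes tested (number tested in brackets) for each T10 library against the mean of both T0 libraries. The 33c library is nearest to 0 for the heat shock factor targets (1.43) and for ribosome biogenesis genes (-1.58), and the libraries at 37c and without a temperature label lie close together.

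Later times of replicate 1 were read from 1 library each (T20, T30 and T40), with no test. Most heat shock factor targets peaked early: of 32, 21 were highest at T10, 7 at T20 and 3 at T30. Over all 5689 genes tested, 1048 were highest at T10, 493 at T20 and 1000 at T30. The targets were then followed by their median. Their median against T0 replicate 1 was 2.38 at T10, 1.71 at T20, 1.16 at T30 and 0.77 at T40. SSA4 had 61.5, 18293, 17568, 10125 and 4501 CPM at T0, T10, T20, T30 and T40, and HSP42 had 216, 3473, 1067, 572 and 390.2 CPM. HSP82 differed, with 2839, 13308, 15803, 15994 and 11706 CPM, and stayed near its highest level to T30. HSP12 was highest at T20, with 58.2, 1504, 2208, 1676 and 744 CPM. General stress genes had medians of 1.99, 1.30, 0.85 and 0.59, and 50 of 64 were highest at T10.

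Ribosome biogenesis genes lay nearer to their level before heat at the later times, with medians of -2.39, -1.09, -0.91 and -0.73 at T10, T20, T30 and T40. The lowest level was at T10 for 136 of the 139, as for 2192 of all 5689 genes. Against the mean of both T0 libraries the medians were -1.99, -0.69, -0.53 and -0.32, T0 replicate 1 being the higher. RRP12 had 565, 71.9, 181, 209.7 and 251 CPM from T0 to T40. Ribosomal protein genes were lowest at T10 in 63 and at T20 in 56 of 137 genes, against 2192 and 651 of all 5689. Their medians were -0.90, -1.03, -0.67 and -0.56 (-1.20, -1.36, -0.97 and -0.84 against the mean of both T0 libraries), so T20 lay no nearer to T0 than T10. Cell wall integrity genes, which answer to stretching of the cell surface, were higher at the later times, with medians of 0.10, 0.21, 0.56 and 0.75, and 22 of 27 were highest at T40, as were 1299 of all 5689 genes. T0 replicate 1 was the lower one for this list (replicate 1 minus replicate 2, median -0.46), and against the mean of both T0 libraries the medians were -0.12, 0.17, 0.22 and 0.66, so the sign at T10 turns. PIR3, a cell wall protein, had 2.24, 12.6, 46.3, 51.8 and 81.9 CPM, and SLT2, the kinase of that pathway, fell at T10 (-0.99 ± 0.20, adjusted p = 0.00989) and had 812, 352, 531, 759.5 and 879 CPM from T0 to T40.

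**Figure D3:**
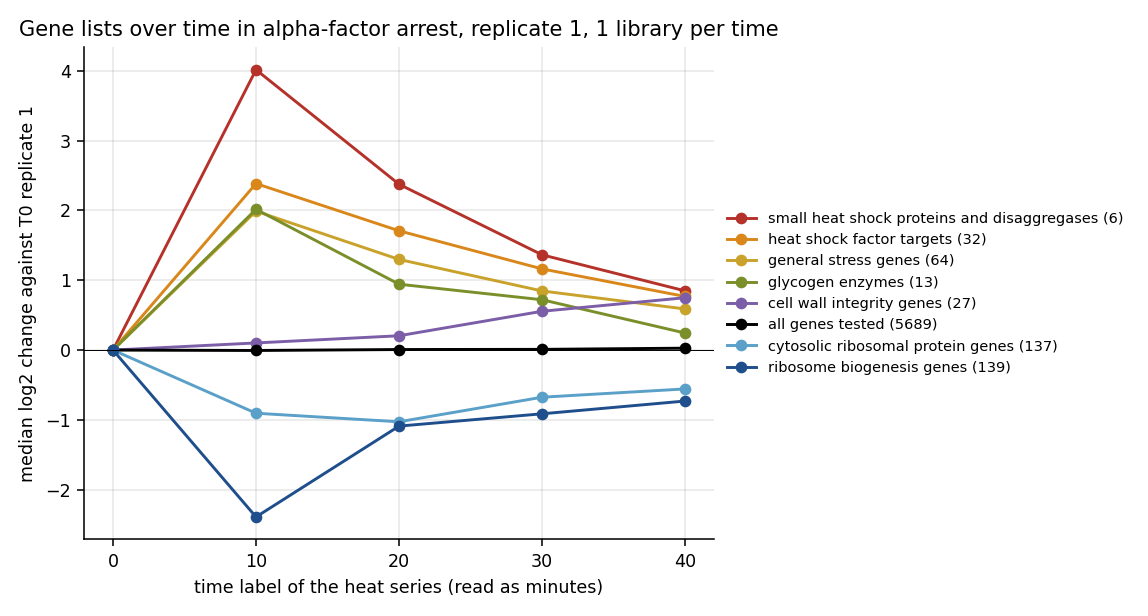
Median log2 change against T0 replicate 1 of 7 gene lists and all genes tested over the time labels of replicate 1, with 1 library per time. Of the lists drawn, small heat shock proteins, heat shock factor targets, general stress genes and glycogen enzymes are highest at T10, ribosome biogenesis genes are lowest there (-2.39) and reach -0.73 at T40, and cell wall integrity genes reach 0.75 at T40.

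The heat response in alpha-factor arrest was then set beside that of cells held in mitosis and of growing cells, which have their own T0 libraries. In nocodazole arrest 928 genes rose (16.3%) and 954 fell (16.8%), and in asynchronous cells 553 rose (9.72%) and 614 fell (10.8%). The difference of the responses was tested as an interaction. Against nocodazole 33 genes changed higher (0.58%) and 45 lower (0.791%) in alpha-factor arrest, and against asynchronous cells 63 higher (1.11%) and 59 lower (1.04%), where the asynchronous groups of 1 library are assumed to vary like the others. In most of these genes the change had the smaller size in alpha-factor arrest, whatever its sign. They were 71 of the 78 called against nocodazole and 119 of the 122 called against asynchronous cells (calls of 1.37% and 2.14% of genes tested). The share over all genes was not computed. Not all changed in the same direction in both states. Against nocodazole 5 of the 33 and 18 of the 45 went opposite ways, and against asynchronous cells 9 of the 63 and 15 of the 59. The nocodazole count of 78 rests on few libraries. It was 0 without nocodazole T0 replicate 1 or 2, 2 without alpha T0 replicate 2 or the nocodazole 37c library and 5 without alpha T0 replicate 1. It was 3, 6 and 11 without the T10 libraries of alpha-factor arrest (no label, 33c and 37c), 48 without the nocodazole T10 library of replicate 1 and 29 without TMM factors. Against asynchronous cells it was 26, 54, 78 and 60 without the alpha T10 libraries (no label, 33c and 37c) or alpha T0 replicate 2.

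Ribosome biogenesis genes differed between the states in their median change. The calls against nocodazole given below, RPA43 included, depend on single libraries, as does the total against nocodazole above. Their median change was -1.94 in alpha-factor arrest, -3.33 in nocodazole arrest and -4.13 in asynchronous cells. In the interaction 15 of 139 passed against nocodazole and 31 against asynchronous cells, all of them higher in alpha-factor arrest. The levels before heat overlapped, with list medians of 7.44 and 6.67 log2 CPM in alpha-factor arrest, 7.65 and 7.06 in nocodazole arrest and 7.64 in asynchronous cells. At T10 they were 5.11, 5.40 and 5.05 in alpha-factor arrest, above the 4.60, 4.11 and 3.93 of nocodazole arrest and the 3.84 of asynchronous cells. UTP13, a factor of the small subunit precursor, had 281 and 176 CPM at T0 and 61.6, 70.5 and 45.2 CPM at T10 in alpha-factor arrest, 302 and 292 CPM at T0 and 11.4, 13.8 and 7.52 CPM at T10 in nocodazole arrest and 371 CPM at T0 and 4.38 CPM at T10 in asynchronous cells. Its difference from asynchronous cells was 4.44 ± 0.56, adjusted p = 0.0148. RPA43, a subunit of RNA polymerase I, had 159.7 and 136 CPM at T0 and 5.51, 5.28 and 1.65 CPM at T10 in nocodazole arrest and differed by 2.86 ± 0.49, adjusted p = 0.0352. DHR2 differed from asynchronous cells by 4.83 ± 0.88, adjusted p = 0.0256, and the transfer RNA methylation gene TRM11 by 4.95 ± 0.83, adjusted p = 0.0231.

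General stress genes also differed between the states in their median change. The calls against nocodazole given below, those of named genes included, again depend on single libraries. Their median change was 1.90 in alpha-factor arrest, 3.10 in nocodazole arrest and 3.79 in asynchronous cells, and 8 and 15 of 64 passed lower in the interactions with nocodazole and asynchronous cells, with 1 higher against nocodazole. Here the levels before heat differed, with medians of 5.90 and 5.77 log2 CPM in alpha-factor arrest, 5.28 and 5.28 in nocodazole arrest and 4.20 in asynchronous cells. At T10 the medians were 7.94, 7.38 and 7.95 in alpha-factor arrest, 8.15, 8.01 and 8.28 in nocodazole arrest and 7.99 in asynchronous cells. RTC3 had 118 and 92.9 CPM at T0 and 715, 484 and 915 CPM at T10 in alpha-factor arrest and 6.95 CPM at T0 and 1165 CPM at T10 in asynchronous cells (difference -4.64 ± 0.60, adjusted p = 0.0169). MPC3, a mitochondrial pyruvate carrier subunit, stood at 18.7 and 13.0 CPM at T0 and 18.2, 16.9 and 17.3 CPM at T10 in alpha-factor arrest and 4.56 and 2.95 CPM at T0 and 52.1, 52.2 and 36.9 CPM at T10 in nocodazole arrest (difference -3.52 ± 0.39, adjusted p = 0.0110). BAG7 had 58.7 and 38.8 CPM at T0 and 23.2, 46.5 and 21.0 CPM at T10 in alpha-factor arrest, where it was already high, against 0.978 and 0.681 CPM at T0 and 49.1, 53.2 and 30.1 CPM at T10 in nocodazole arrest (difference -6.41 ± 0.65, adjusted p = 0.0110). YGP1 went the other way, with 128 and 157 CPM at T0 and 309.6, 575 and 386 CPM at T10 in nocodazole arrest, so that its lower level in alpha-factor arrest before heat went with the larger rise there (difference 3.77 ± 0.64, adjusted p = 0.0352).

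For heat shock factor targets no difference between the states passed. Their median change was 2.27 in alpha-factor arrest, 2.83 in nocodazole arrest and 3.05 in asynchronous cells. In both interactions 0 of 32 passed in edgeR and 0 in DESeq2. At an unadjusted p under 0.05 there were 0 against nocodazole and 3, all lower, against asynchronous cells. Of all 5689 genes 406 and 398 were lower at that p in these interactions. SSA4 had 41.4 and 70.3 CPM at T0 and 21740, 6268 and 26697 CPM at T10 in nocodazole arrest and 56.5 CPM at T0 and 29820 CPM at T10 in asynchronous cells, and its differences were -0.50 ± 1.02 and -1.16 ± 1.33, neither of which passed, which does not show that the responses were alike. Ribosomal protein genes had medians of -0.94, -1.47 and -1.92 in the 3 states, and 0 of 137 passed in either interaction in edgeR, with 3 and 7 higher at an unadjusted p under 0.05 and 0 and 1 in DESeq2.

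**Figure D4:**
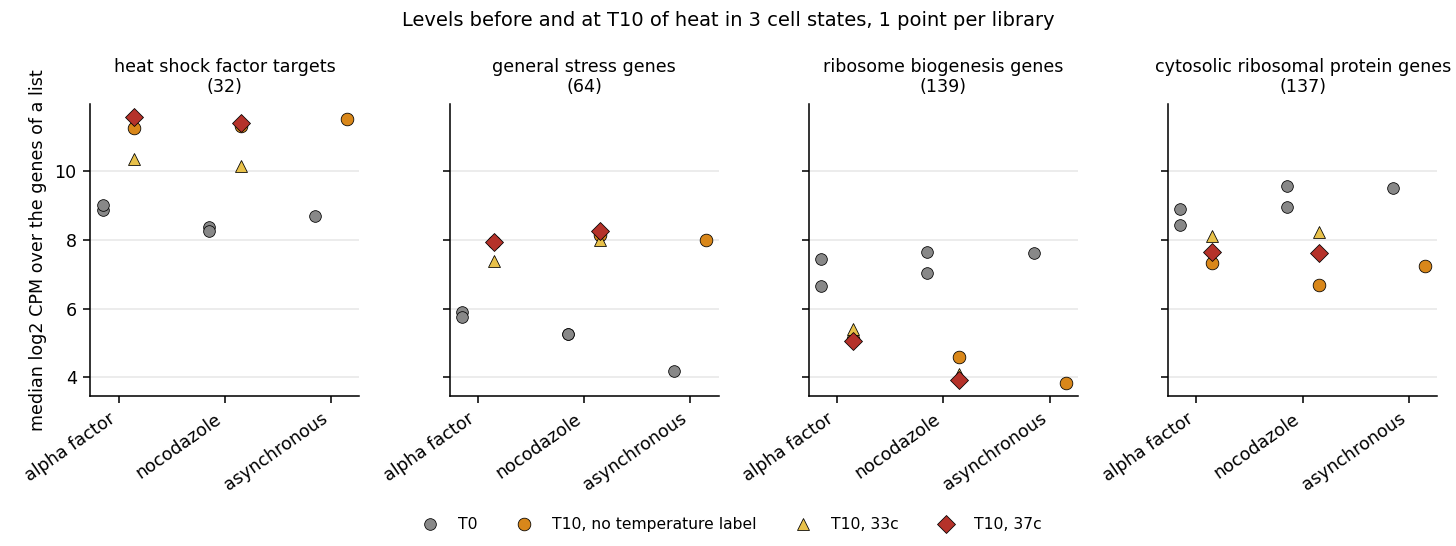
Median log2 CPM over the genes of 4 lists before heat (grey) and at T10 (coloured), 1 point per library, in alpha-factor arrest, nocodazole arrest and asynchronous cells. Ribosome biogenesis genes end higher at T10 in alpha-factor arrest (5.05 to 5.40) than in the other states (3.84 to 4.60), and general stress genes start higher there (5.77 and 5.90 against 4.20 to 5.28).

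Within alpha-factor arrest, heat at T10 was compared with NaCl at T30 in a fit of the 10 libraries of both, in which 1648 genes were called with heat in place of 870. With salt 239 of 5629 genes rose (4.25%) and 211 fell (3.75%). The responses differed for 169 genes, 87 higher (1.55%) and 82 lower (1.46%) with heat. Many heat shock factor targets differed between the stresses. Of 32 heat shock factor targets 17 passed, all higher with heat, with a median difference of 2.05, and with salt 1 rose and their median was 0.15. SSA4 had 109.6 and 299 CPM at T0 and 394, 303 and 425 CPM at T30 with salt and differed by 7.09 ± 0.86, adjusted p = 0.00389. HSP26 had 29.9 and 56.8 CPM at T0 and 180.5, 147 and 211 CPM at T30 and differed by 5.53 ± 0.85, adjusted p = 0.00943, and BTN2 differed by 3.82 ± 0.83, adjusted p = 0.0353. RIM4, known from meiosis, differed by 3.68 ± 0.57, adjusted p = 0.00943, and HXT7 by 3.98 ± 0.64, adjusted p = 0.0103.

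Of 23 osmotic response genes 3 differed, all lower with heat, with a median difference of -0.68, while 14 rose with salt. STL1, the glycerol importer, had 1.99 and 3.59 CPM at T0 and 10.3, 18.7 and 12.8 CPM at T10 with heat and 3.03 and 1.11 CPM at T0 and 972, 181 and 1042 CPM at T30 with salt (difference -5.84 ± 1.28, adjusted p = 0.0369), and the glycerol phosphatase GPP2 had 117 and 154 CPM at T0 and 287, 279.5 and 290.1 CPM at T10 and 205 and 196 CPM at T0 and 2556, 1725 and 2849 CPM at T30 (-2.41 ± 0.32, adjusted p = 0.00507). The glucose transporter HXT1 (-3.89 ± 0.68, adjusted p = 0.0150), HBT1 (-2.92 ± 0.30, adjusted p = 0.00113) and CAF120 (-2.90 ± 0.25, adjusted p = 0.000280) were lower with heat too. General stress genes, with medians of 1.90 for heat in the fit above and 1.64 for salt, differed in 4 of 64 higher and 3 lower. Of 139 ribosome biogenesis genes, with medians of -1.94 and -0.86, 13 were lower with heat. The count of 169 moved from 11 without salt T0 replicate 1 and 31 without salt T0 replicate 2 to 1217 without heat T0 replicate 2. It was 37, 307 and 53 without the heat T10 libraries (no label, 33c and 37c) and 63, 93 and 63 without the salt T30 libraries (no dose, 0.5N and 0.7N), and heat and salt were sampled at different times.

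**Figure D5:**
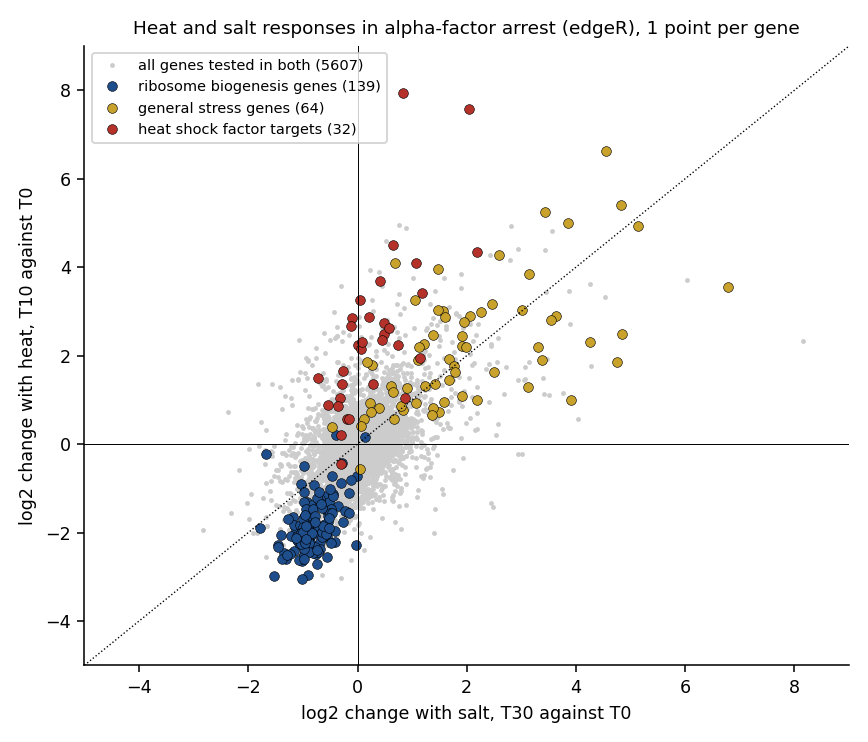
Log2 change with heat (T10 against T0) and with salt (T30 against T0) in alpha-factor arrest for 5607 genes tested in both, from the fits of 12 heat libraries and of 10 alpha-factor libraries; the dotted line marks equal change. Heat shock factor targets have a median of 0.15 for salt and reach 7.94 for heat, and general stress genes have medians of 1.64 and 1.90.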

How the data were processed

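RNA-seq read counts per gene were deposited by the authors as 1 table of 6705 gene rows. Per the submitters' processing notes, reads were handled with Trimmomatic 0.32, Bowtie2 and HTSeq 0.6.1. The sources used here name no genome build, gene models or strandedness, so reads of overlapping genes and near-identical copies may be shared. Symbols came from a RefSeq table, which matched 6018 rows. The deposited counts were tested in edgeR 4.0.16 (R 4.3.3, limma 3.58.1) by the quasi-likelihood test, with TMM factors, the edgeR filter on low counts and Benjamini-Hochberg adjusted p under 0.05. Alpha, nocodazole and asynchronous heat libraries shared 1 fit without a replicate block. Heat and salt shared another. CPM are counts scaled to a library's total in the usual way, without TMM factors. The log2 CPM used TMM factors and a prior count of 2. Intervals and floors cover counting error only. Alternatives were DESeq2 1.42.0, other scaling, filters, fits and omitted libraries.

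The genes and all 40 lists were chosen with earlier results of these data known. Named genes were the 10 largest rises and falls with a mean of at least 10 CPM, up to 5 called members of a list, the members of the chaperone and regulator lists, well-known stress genes, and the 5 largest differences each way. The tests were tried on simulated data with known changes.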

Additional observations from a re-analysis of the deposited data

Results flagged for a closer look

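The heat response of alpha-factor-arrested cells differed from that of nocodazole-arrested cells for 78 genes in the test of the difference itself (edgeR, adjusted p under 0.05). The log2 difference, alpha minus nocodazole, was 3.77 for YGP1, 3.43 for NCE102, 3.16 for SFG1, 2.94 for AIM20 and 2.86 for RPA43. On the lower side it was -6.41 for BAG7, -5.80 for YPT53, -3.52 for MPC3, -3.35 for RGI1 and -3.11 for RTA1.

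From asynchronous cells, with 1 library before and 1 after heat, the response differed for 122 genes. The log2 difference, alpha minus asynchronous, was 4.95 for TRM11, 4.83 for DHR2, 4.76 for SYO1, 4.55 for UPA2 and 4.44 for UTP13. On the lower side it was -5.98 for BAG7, -5.94 for ARO10, -4.93 for MPC3, -4.65 for PHM7 and -4.64 for RTC3. Both differences use the same alpha-factor libraries.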

How the results depend on the processing

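The count of genes called with heat in alpha-factor arrest was 870, and it was 265 and 745 without T0 replicates 1 and 2, and 402, 766 and 387 without the T10 libraries (no label, 33c and 37c). It was 1375 with the alpha T0 libraries of the salt series added, 1648 in the fit of 10 alpha libraries, 26 with the 33c library alone, 197 with the 37c library alone and 159 with the unlabelled library alone. Leaving out 1 library gave 6 to 23 heat shock factor targets (12 without T0 replicate 2 or the T10 library of replicate 1 or 37c), 4 to 6 small heat shock proteins and 26 to 47 general stress genes past the test, and 68 to 122 ribosome biogenesis, 1 to 32 ribosomal protein, 7 to 17 polymerase (9 without 37c) and 5 to 16 translation factor genes (15 without T0 replicate 2, 9 without 37c). At 33c alone these counts were 2, 1, 14, 0, 0, 0 and 0. At 37c alone they were 13 heat shock factor targets, 30 general stress, 39 ribosome biogenesis, 0 ribosomal protein, 4 polymerase and 1 translation factor genes, and with the unlabelled library alone 11, 28, 33, 3, 2 and 1. Ribosomal protein genes past the test numbered 45 in DESeq2, 49 in the 5 libraries alone, 70 with the salt T0 libraries and 81 in the 10-library fit, where translation factors numbered 29. TDH3 changed sign without T0 replicate 1 (-0.13, against 0.88 without T0 replicate 2) and CLB2 with the salt T0 libraries (-0.032); neither was called. The cause of these shifts was not tested.

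The count of differences ranged over omitted libraries from 0 to 106 against nocodazole (48 without the nocodazole T10 library of replicate 1), 26 to 86 against asynchronous cells (54 without 33c, 78 without 37c) and 11 to 1217 for heat against salt (307 without 33c, 53 without 37c, 93 without 0.5N, 63 without 0.7N). DESeq2 called 283, 305 and 476, and 29 differed from nocodazole without TMM factors. Without TMM factors the share of higher calls for heat against salt was 42.4% in place of 51.5%.

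Deviations from group means correlated at -0.51 to 0.80 over 19 pairs of libraries of the same number (median 0.28), pairs that are not independent. The median over 18 pairs of different numbers was -0.20. It cannot serve as a contrast, since the deviations of 2 libraries of a group mirror each other, which partly fixes it in advance. T0 and T10 of replicate 1 correlated at -0.13, and the numbers were not read as pairs. A replicate block gave 1270 calls with heat, 84 of them ribosomal protein genes in place of 28, and 226, 244 and 109 differences against nocodazole, asynchronous cells and salt.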
